A study of Mus musculus with 2 samples.

Results

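The genes described here are 9 genes of the AP-1 transcription factor family, Fos, Fosb, Fosl1, Fosl2, Jun, Junb, Jund, Atf3 and Batf, out of 21887 protein-coding genes of the mouse annotation. They were taken by symbol, but the family was chosen by a measured value, the score of the peak near Fosb, which is among the highest at gene ends. Scores and positions of peaks at these genes are for that reason given as descriptions, without a test. All 9 symbols were found in RefSeq (GRCm38.p6), and 8 had a strand there. Fosl1 did not, so its start and end of transcription are not told apart below.

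The study used antibodies against Usp16, an enzyme that removes ubiquitin from histone H2A, for chromatin immunoprecipitation followed by sequencing (ChIP-seq) in bone marrow cells positive for c-Kit and Sca-1, a gate that enriches blood stem and progenitor cells. Its second library was precipitated with IgG from cells of the same kind. Both libraries came from Mx1 Cre:Usp16loxp/loxp mice, in which an interferon-responsive promoter drives Cre and Cre can delete Usp16. Whether Cre had been switched on, the animals' age and the number of animals are not given in the labels. There was 1 library for each antibody, and the only values were those of 1 list of 5079 peaks from the Usp16 antibody. Values therefore have no replicate error, no comparison could be tested, and read depth is unknown. A peak list gives no expression, so the labelled cell type could not be checked against its markers.

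AP-1 is a dimer of basic leucine zipper (bZIP) proteins. Fos-type proteins need a partner, usually a Jun-type protein, whereas Jun-type proteins can also pair with themselves, and the dimers bind a short palindromic DNA site. Many of these genes are immediate-early genes, transcribed within minutes when growth factors, cytokines or stress activate MAP kinases. In blood, loss of Junb in stem cells is known to cause a myeloproliferative disease in mice, and Batf is best known from lymphocytes.

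Of the 9 genes, 2 had a peak within 1 kb of an annotated gene end (by 1 bp of overlap or more), and these were Fos and Fosb. The same rule called 13.9% of all protein-coding genes (3033 of 21887). The positions of both peaks differed. The Fos peak lay over the start of Fos, whereas the Fosb peak lay behind the end of Fosb and over the start of a long noncoding RNA (lncRNA) gene, Gm26802. The 250 bases before these 3 starts are printed because 2 of them lie under the peaks and the third, that of Fosb, does not. The stretch before Jun, the main partner gene of Fos, is added as a second start without a peak. All are from RefSeq on GRCm38.p6, in the direction of transcription. For Fosb the table's start lies 73 bp inside the gene's annotated boundary. Capitals mark matches, on either strand, to a TATA box written as TATAAA, to the letters CCAAT of the box of that name, to a GC box written as GGGCGG and to the short element TGACG.
Fos, chr12:85473640-85473889, plus strand: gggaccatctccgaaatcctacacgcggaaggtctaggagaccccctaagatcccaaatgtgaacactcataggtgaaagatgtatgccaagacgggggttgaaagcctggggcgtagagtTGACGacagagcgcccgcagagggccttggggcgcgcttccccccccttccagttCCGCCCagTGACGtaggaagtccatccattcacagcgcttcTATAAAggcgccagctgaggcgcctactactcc
Gm26802, chr7:19300794-19301043, minus strand: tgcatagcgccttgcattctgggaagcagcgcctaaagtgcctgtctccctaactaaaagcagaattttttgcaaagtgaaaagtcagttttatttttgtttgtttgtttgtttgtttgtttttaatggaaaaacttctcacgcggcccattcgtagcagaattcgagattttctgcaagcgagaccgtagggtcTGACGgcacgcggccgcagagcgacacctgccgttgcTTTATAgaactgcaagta
Fosb, chr7:19310046-19310295, minus strand: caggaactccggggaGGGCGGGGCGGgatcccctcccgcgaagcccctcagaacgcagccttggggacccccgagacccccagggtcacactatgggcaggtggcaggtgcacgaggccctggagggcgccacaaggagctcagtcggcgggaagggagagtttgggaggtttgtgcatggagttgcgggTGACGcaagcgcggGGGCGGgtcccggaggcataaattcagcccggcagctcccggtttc
Jun, chr4:95052223-95052472, minus strand: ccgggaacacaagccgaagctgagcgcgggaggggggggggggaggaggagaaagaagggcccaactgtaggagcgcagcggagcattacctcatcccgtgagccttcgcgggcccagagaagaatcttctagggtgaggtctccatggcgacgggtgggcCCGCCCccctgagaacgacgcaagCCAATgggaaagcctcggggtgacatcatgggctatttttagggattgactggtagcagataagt

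Fos encodes the prototype of the Fos-type subunits. Its gene lies at chr12:85473890-85477274 on the plus strand. The peak at Fos, chr12:85472926-85474609, had a score of 53.8 and a width of 1684 bp. The score was given to each peak by the authors' peak caller and only ranks peaks within this list, in which the lowest was 50 and the median 70.1. The peak reached from 964 bp before the start of Fos to 720 bp into it, which is 21.3% of the gene. The whole RefSeq promoter window, 250 bases before and 50 after the start, lay under the peak, as did 10.3% of 21263 such windows of protein-coding genes. Exons were not used here. Fos was thus the 1 gene of 8 with a known strand that had a peak within 1 kb of its start, where 13.4% of 17492 protein-coding genes had one.

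The Fos peak was low and broad. Only 12.9% of the listed peaks scored lower (656 of 5079), and only 2.54% were wider (129). Among the 659 peaks that scored as low or lower, the median width was 582 bp and 11 peaks, that of Fos included, reached 1684 bp. Among the 3033 protein-coding genes with a gene-end peak, 10.3% had a lower highest score than Fos. The nearest of these in score were Etl4 above, with an equal score of 53.78, and 2310022A10Rik below, with 53.77. Both had their peak within 1 kb of their start. The next listed peaks on its chromosome lay 476 kb from the Fos peak on one side and 738 kb on the other. The median gap to the nearer neighbour was 88.6 kb over 5046 peaks on the assembled chromosomes, and 13.1% of peaks had a wider gap than Fos.

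Fosb, whose product is a Fos-type subunit known for long-lived shortened forms in the brain, lies at chr7:19302696-19310118 on the minus strand. The peak near it, chr7:19300630-19301759, had a score of 447 and a width of 1130 bp. It ranked 36th of 5079 by score (upper quartile 97.5) and 633rd by width. Of the 2791 peaks within 1 kb of an end of any annotated gene, coding or not, it ranked 14th by score. Among protein-coding genes, 3 had a higher-scoring gene-end peak, and the nearest in score were Rnf44 above (480.0, a difference of 33.3) and Dynll1 below (443, a difference of 4.2). Both of those genes carried a peak within 1 kb of their start and none within 1 kb of their end of transcription.

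Strand places the Fosb peak differently from its neighbours in score. Its near edge lay 937 bp beyond the end of transcription of Fosb, so that 64 bp of the peak fell in the 1 kb window, and its midpoint lay 8.92 kb downstream of the start of Fosb. No peak lay inside Fosb or over the promoter window shown for it. The peak did cover the start of Gm26802, a lncRNA gene of 2534 bp on the same strand, which begins 1902 bp beyond Fosb. It reached 164 bp into Gm26802 and 966 bp before it, with its midpoint 401.5 bp before that start. The whole promoter window of Gm26802 lay under it. A peak within 1 kb of the end of transcription was found for 1.65% of protein-coding genes with a strand (288 of 17492), and Fosb was the 1 AP-1 gene of 8 among them. Of the 181 such genes without a start peak, 86 (47.5%) had, as Fosb did, a peak at their end that covered the start of another gene. The list cannot tell apart which of the neighbouring genes, if either, a peak relates to.

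**Figure D1:**
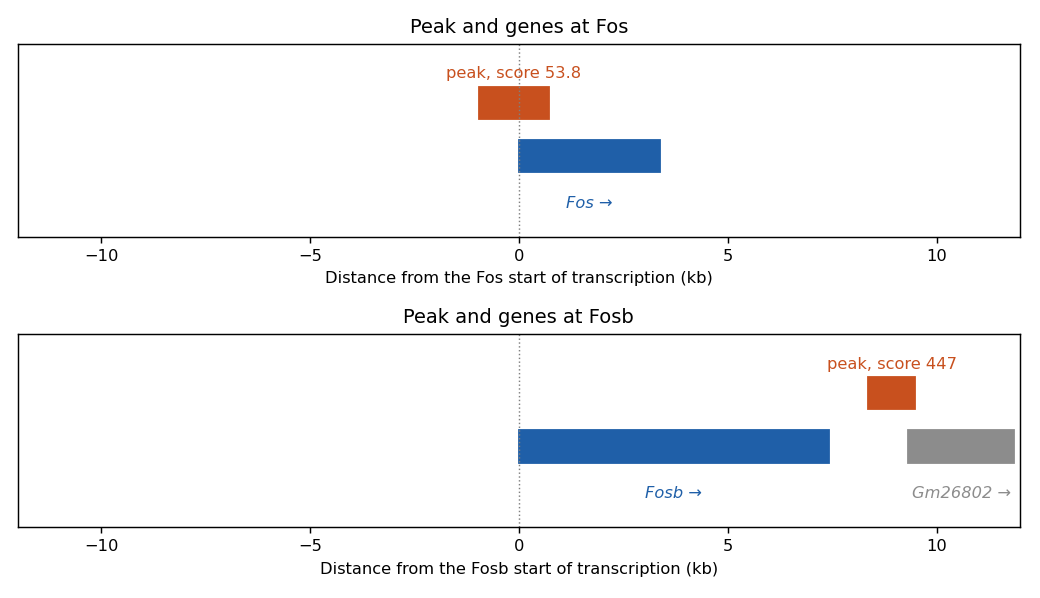
Genes (blue, the AP-1 gene; grey, others; arrows give the direction of transcription) and listed peaks (orange) within 12 kb of the start of Fos (top) and of Fosb (bottom), with distance in kb on the x axis in the direction of transcription. The Fos peak spans the Fos start, while the peak near Fosb begins beyond the end of Fosb and runs over the start of Gm26802.

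The other 7 genes had no peak within 1 kb of an end, and no peak lay inside any of them. A peak inside the gene was found for 16.7% of all protein-coding genes and, in this family, for Fos alone. A peak inside the gene with none at either end, found for 4.04% of protein-coding genes, was listed for none of the 9. The 1 kb rule separated Fosb, whose peak edge was 937 bp from its end, from Fosl1, the next in order, whose nearest peak edge was 4384 bp away. Among peaks at or above the median score, the 1 kb rule called Fosb alone of the 9, and 7.99% of protein-coding genes. Because the list starts at a score of 50, a gene without a peak may still have a weaker signal.

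Fosl1 and Fosl2 encode the Fra-type members of the Fos group. For Fosl1 (chr19:5447698-5455938) the nearest peak midpoint was 4.69 kb from the gene. That peak, chr19:5460322-5460938 with a score of 94.2, covered the start of Fibp, the gene of a growth factor binding protein. Fosl1 had 5 peaks within 100 kb. Fosl2 (chr5:32136472-32157840, plus strand) had none, and its nearest peak was 274 kb before its start, the farthest of the 9. It scored 71.9 and lay wholly inside Babam2, whose product is a subunit of deubiquitinating complexes. The peak-free stretch around Fosl2 measured 850 kb.

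The 3 Jun genes, which are short and have no introns, all lacked a gene-end peak. Jun (chr4:95049036-95052222, minus strand) encodes c-Jun, the usual partner of Fos. Its nearest peak, with a score of 53.8 and a width of 541 bp, lay 73.1 kb downstream of its start at chr4:94978817-94979357. This peak covered the starts of the lncRNA gene Gm12694 and of Mysm1, which encodes another histone H2A deubiquitinase with a known role in blood stem cells. The start of Mysm1 lay 68 bp from the peak midpoint. Between this peak and the next one, 338 kb around Jun held no listed peak.

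Junb (chr8:84976909-84978748, minus strand) encodes a Jun-type subunit that restrains myeloid growth. It lay between peaks on both sides, in a peak-free stretch of 19.7 kb, the shortest of the 8 genes with no peak inside. The nearest peak (chr8:84969040-84969977, score 55.1) was 7.4 kb from the gene's end. It covered the starts of Rnaseh2a, the catalytic subunit gene of an RNase H enzyme, and Prdx2, a peroxiredoxin gene, which point away from each other. On the other side a peak of score 84.5 lay inside Hook2, 11.5 kb from the start of Junb. Jund (chr8:70697739-70700616, plus strand), which encodes the Jun-type subunit that is usually made at steady levels in resting cells, lay 20.3 kb from its nearest peak. This peak scored 106 and lay inside Gm3336 and the lncRNA gene Gm34255. A broad peak of 1585 bp and score 67.6, 24.1 kb before the start of Jund, covered an annotated end of the splicing gene Lsm4. Junb and Jund each had 4 peaks within 100 kb, a count reached by 6.39% of protein-coding genes.

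Atf3 encodes a stress-induced factor that pairs with Jun proteins. For Atf3 (chr1:191170296-191183333, minus strand) the nearest peak was 92.5 kb before the start. It was narrow, at 356 bp, had a score of 60.4, and lay outside all annotated genes, 31.0 kb from the nearest, Nenf. Batf3, a related gene 61.4 kb from Atf3, had no gene-end peak either. Batf (chr12:85686720-85709087, plus strand) shares its neighbourhood with Fos and with Jdp2, the gene of a Jun-dimerising repressor, over 235 kb in all. The only listed peak in that span was the one at Fos. It was also the nearest peak to Batf, 213 kb from its start, and to Jdp2, 125 kb from its start. No peak lay within 100 kb of Batf.

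**Figure D2:**
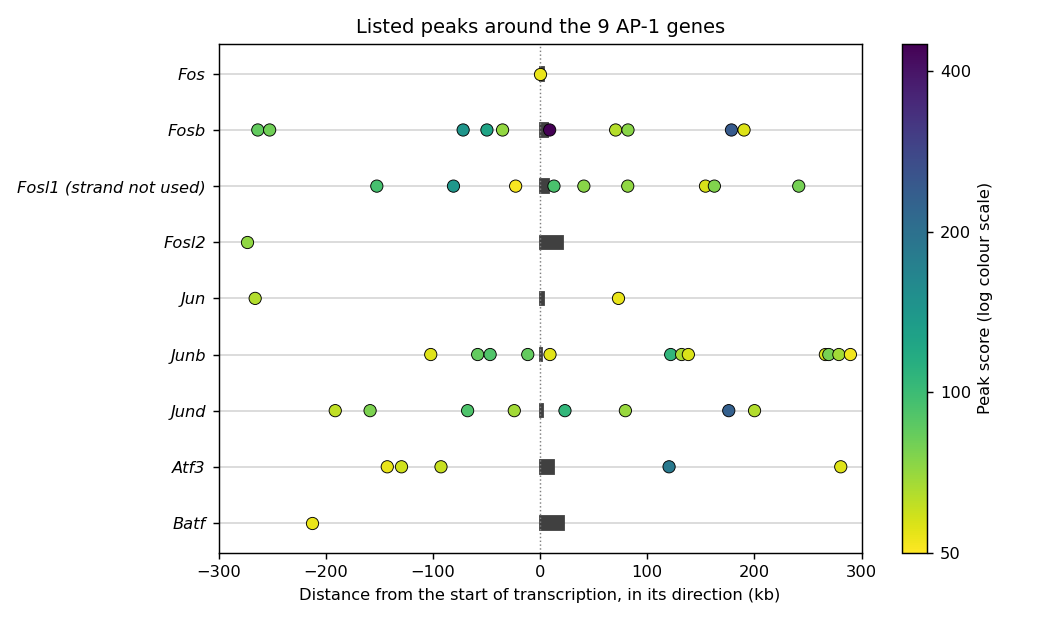
Midpoints of listed peaks (circles, coloured by score on a log scale) within 300 kb of each of the 9 AP-1 genes, with distance in kb on the x axis from the start of transcription in its direction. For Fosl1 distance is from the end with the lower coordinate, and dark bars are the genes. Fos has a peak at 0, Fosb has the highest-scoring one behind it, and Fosl2 and Batf have none within 100 kb.

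Distances to the nearest peak ran from 122.5 bp at Fos to 274 kb at Fosl2. The median was 20.3 kb over the 9 genes and 78.8 kb over all protein-coding genes. Of the 9, 6 were nearer than that overall median, and Atf3, Batf and Fosl2 were farther. The number of peaks within 100 kb of the gene ran from 0 at Fosl2 and Batf to 6 at Fosb, and 1.49% of protein-coding genes had as many as Fosb. The median count was 1 both in the family and over all protein-coding genes, of which 45.2% had none. The genes thus fell into those with several peaks around them (Fosb, Fosl1, Junb and Jund, with 4 to 6) and those with at most 1 (Fos, Jun, Atf3, Fosl2 and Batf).

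Because Fos and Batf share theirs, the 9 genes had 8 distinct nearest peaks. Of these, 4 scored below the list's median of 70.1 (Fos, Jun, Junb and Atf3) and 4 above it (Fosb, Fosl1, Fosl2 and Jund). Starts of transcription of other genes were covered by 4 of the 8, those nearest to Fosb, Fosl1, Jun and Junb. In all, 22 distinct peaks lay within 100 kb of an AP-1 gene. Of these, 14 (63.6%) covered a start of transcription, where 36.5% of all peaks did. The part played by gene density around the peaks was not tested.

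**Figure D3:**
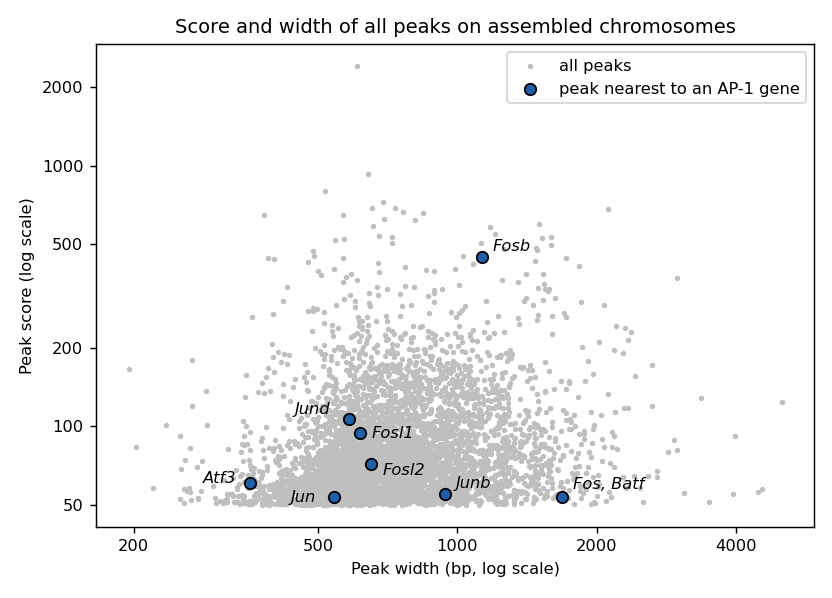
Score against width in bp, both on log axes, for the 5046 peaks on assembled chromosomes (grey) and the 8 peaks nearest to an AP-1 gene (blue, named by that gene). The Fosb peak, at 447, is exceeded in score by 35 of all listed peaks, and the Fos peak sits at the lower right, with a score of 53.8 and a width of 1684 bp.

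Promoter sequences were compared for the 8 genes in RefSeq's table, in windows of 300 bases. The Fos window held 20 CpG dinucleotides and 58.7% G and C, close to the medians of 22 and 60.7% for the 2662 protein-coding windows overlapped by a peak. Windows not overlapped by a peak had medians of 10 CpG and 55.7%. The CpG counts of Fosb (25), Fosl2 (32), Atf3 (27), Junb (21) and Jun (15) were also above the median of 13 over all windows, and those of Batf (9) and Jund (3) were below it. A CpG-rich window was therefore found with a peak (Fos) and without one (such as Fosl2 and Atf3). Gm26802, under the high-scoring peak near Fosb, had 14 CpG and 45.7% G and C.

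The letters TATAAA stood 33 bases before the start of Fos and, on the other strand, 18 bases before that of Gm26802. They occurred in 12.6% of all 21263 protein-coding windows and 6.95% of those overlapped by a peak. Junb also held them, at the first transcribed base of its RefSeq start. GGGCGG, the core of a site for Sp-type factors, was found in Fos, Fosb, Fosl2, Jun, Atf3 and Batf, beside 46.2% of all windows and 63.4% of those under a peak. CCAAT was found in Jun, Junb and Atf3, and in 38.2% of all windows. CCGGAA, the core of many ETS factor sites, was found only in Batf among the 8, and in 18.7% of all windows and 39.5% of those under a peak. TGANTCA, the site that AP-1 itself binds, the related site TGACGTCA and the CArG box bound by serum response factor were found in none of the 8 windows, beside 6.99%, 2.23% and 1.52% of all windows. The windows reach 250 bases before the start, so a site farther before it, at Fos or any other gene, could not be found. TGACG, a part of TGACGTCA that was chosen after the sequences were seen, was found in Fos, Fosb, Junb, Atf3 and Batf and in Gm26802. In Fos it stood 129 and 66 bases before the start. It occurred in 23.6% of all windows and 37.8% of those under a peak. All motifs were searched on both strands, and a match is a match of letters only. Variants of the written sites were not counted, such as the letters TGACATCA, close to TGACGTCA, in the stretch printed for Jun.

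Other genes of the pathway were taken from 4 lists of 99 genes in all, of which 20 (20.2%) had a gene-end peak, beside 13.9% of protein-coding genes. Among 39 genes of other bZIP proteins, 9 had one. The highest score was at Atf6 (288), which encodes a stress sensor of the endoplasmic reticulum, followed by Atf7 (132) and Atf2 (105), whose products pair with Jun. Cebpa, a myeloid master regulator, had a peak of score 92.5. Ddit3 (64.5), Atf4 (59.9), Dbp (59.1), Mafk (58.6) and Atf6b (51.3) made up the rest.

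Among 26 genes of the MAP kinase cascades, which activate AP-1, 5 had a gene-end peak. They include Mapk14, the gene of the stress kinase p38 alpha (197), Map3k7 (167), Nras (63.6) and Mapk13 (51.0). Among 14 genes of factors that act on Fos and Jun transcription there were 3, Stat3 (113), Mrtfb (83.5) and Elk4 (61.2). Among 20 other immediate-early genes there were 3, Egr1 (88.4), the phosphatase gene Dusp1 (75.3) and Npas4 (70.1). The other 17 of this list had none. The share with one was 15% in this list, close to the 13.9% of all protein-coding genes. Of the 20 highest-scoring gene-end peaks, 1 for each such gene of the 4 lists, 9 also reached the 1 kb window of a further gene. The same share over all protein-coding genes is not given here, so this count cannot be read as high or low.

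Where the reference gave a strand, gene-end peaks of the 4 lists lay at starts of transcription, as that of Fos did. Of the 17 genes in these lists with a strand and a peak within 1 kb of their start, 14 had the start itself covered. The midpoints of all 17 lay 33.5 to 1208.5 bp from the start (median 206.5 bp), where that of Fos lay 122.5 bp from it. None of the 80 listed genes with a strand had a peak within 1 kb of its end of transcription, as Fosb had. Egr1 had no strand in the reference and is not among them. Its peak covered the gene's end with the higher coordinate and did not reach the other. The midpoint lay 0.244 kb from that end, which could not be told to be a start or an end of transcription. Of the 20 highest gene-end scores in the lists, 1 for each gene, 18 were above that of Fos and 0 above that of the Fosb peak. Among all 3033 protein-coding genes with a gene-end peak, 10.3% had a lower highest score than Fos. Only 3 of them had a higher one than Fosb, which was chosen for its score, so the 0 follows from that choice. Of the 20 peaks of the lists, 2, at Egr1 and Stat3, were wider than the 1684 bp at Fos, as were 2.54% of all listed peaks.

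**Figure D4:**
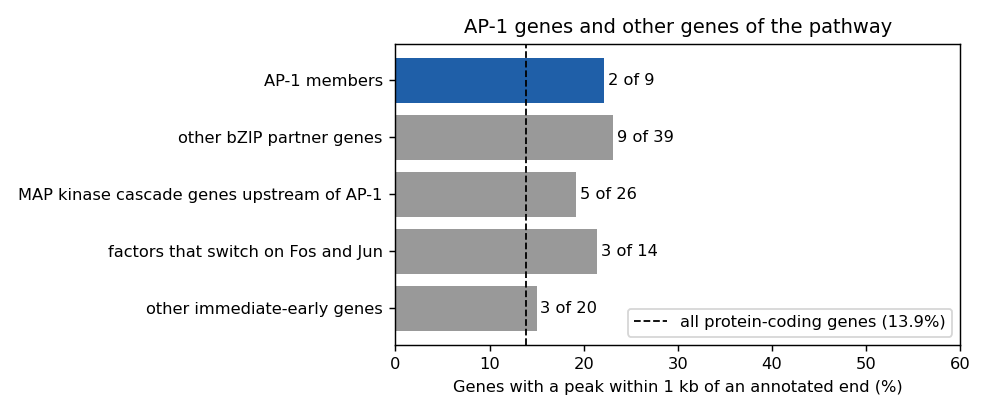
Share of genes, in percent, with a peak within 1 kb of an annotated end, for the 9 AP-1 genes (blue) and the 4 other lists (grey), with counts beside the bars and the share over all protein-coding genes as a dashed line. The AP-1 bar stands for 2 of 9 genes, so 1 gene more or less moves it by more than its distance to the other bars.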

How the data were processed

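The deposited file is 1 list of peaks with a score for each. It comes from MACS run in Galaxy, per the file headers. Bowtie, Picard and the build mm10 are named in the submitters' processing notes. No version or setting is given in the sources used here, nor the part played by the IgG library, whose signal was not analysed here. The score deposited by the authors was used as it stands, within the list only.

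Starts were made 1-based, and a peak's midpoint was its position. Genes came from RefSeq GRCm38.p6, the assembly that mm10 names, and strand from its promoter table. A gene-end peak overlaps by 1 bp or more the window of 1 kb on either side of an annotated end. Overlap, distance and motif code (Python 3.11.15, pandas 2.3.3) was tested on simulated data. No test was run.

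The members, the 4 other lists and the motifs were chosen with earlier results of these data known. Named by rule are the members, their neighbours Jdp2 and Batf3, genes at or nearest to their peaks, the genes nearest in score to Fos and Fosb, and each listed gene with a gene-end peak, of which 1 is counted but not reported here by name. Other genes near the members' peaks, and 7 listed genes with a peak inside alone, were named after their values were seen. Alternatives were windows of 500 bp and 5 kb, the midpoint or 50% of the peak in the window, peaks scoring at or above the median, other distances and merged peaks. Counts by start and end of transcription were added after seeing the data.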

Additional observations from a re-analysis of the deposited data

How the results depend on the processing

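The count of AP-1 genes with a gene-end peak rests on the rule. It was 2, and 3 with a window of 5 kb, which added Fosl1 (18.3% of protein-coding genes). It was 1, Fos alone, with a window of 500 bp (13% of protein-coding genes), with the midpoint or with 50% of the peak in the window (13.1% each), and at starts of transcription (13.4%). It was 1, Fosb alone, at ends of transcription (1.65%) and with peaks scoring at or above the median (7.99%). The count with a peak inside the gene was 0 by midpoint and 0 with the higher-scoring peaks, beside 10.6% and 9.43% of protein-coding genes. The median distance to a peak was 20.0 kb from peak edges and 107 kb with the higher-scoring peaks, where all protein-coding genes had 78.3 and 200 kb. Without the lower-scoring peaks, the nearest to Fos was 478 kb away. The median number of peaks around the genes was 6 within 500 kb and 0 with the higher-scoring peaks, beside 3 and 0 over all protein-coding genes. Among the higher-scoring peaks, 11 of the 99 genes of the other lists had a gene-end peak, beside 7.99% of protein-coding genes. Merging peaks changed no score or width at Fos or Fosb. No paired analysis was possible because there was 1 library for each antibody and no test.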

Other observations

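A peak inside the gene with none at either end was listed for 7 of the 99 other pathway genes, beside 4.04% of protein-coding genes. They include Srf, the gene of serum response factor, which switches on Fos, with a peak of score 56.3 centred 1768 bp after its start. Mef2a had one of 74.7 at 3461 bp and Map2k5, a MAP kinase kinase gene, one of 68.1 at 3758 bp. Map2k6, which encodes a kinase that activates p38, held a peak of score 206, 23.2 kb from its nearer end. Nr4a1, an immediate-early gene of a nuclear receptor, held one of 96.4, 7.95 kb from its nearer end. Bach2 and Creb5, genes of bZIP proteins, held 2 peaks each, with highest scores of 81.5 and 68.6. None of the 9 AP-1 genes was of this kind.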
